A study of Mus musculus with 10 samples.

Results

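Proneural and glutamatergic transcription factors were examined here as 8 named genes, Neurog1, Neurog2, Neurod1, Neurod2, Eomes, Tbr1, Bcl11b and Fezf2, of the 21101 genes in the deposited expression table. The genes were chosen by name, from their known roles but with earlier results of these data known, and all 8 were found. The RNA-seq study profiled 5 lines of mouse p53-null neural stem cells, all of which, controls included, had been transduced with mutant IDH1(R132H). The lines Control NSC#1 and Control NSC#2 were the controls, and mA16d#4, mA19d#4 and mA19d#7 were deleted for Atrx, a chromatin remodeller of the SNF2 family. Each line gave 1 library in proliferation medium with 20 ng/ml EGF and bFGF, and 1 library after 8 days in differentiation medium with B27 but without growth factors. Each medium thus had 2 control and 3 Atrx-deleted libraries. How the lines were derived, and whether a line is 1 clone, is not given in the sources used here. The limma p-values measure the pooled spread between libraries of the same medium and Atrx status, each from a different line. The main fit had no term for the line, so the 2 libraries of a line counted as separate.

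Excitatory neurons of the cerebral cortex arise from dorsal progenitors in which the neurogenins, basic helix-loop-helix activators, start neuronal commitment. The cascade is classically ordered as Pax6, Neurog2, Eomes, Neurod1 and Tbr1, with Eomes marking intermediate progenitors and Tbr1 marking early postmitotic glutamatergic neurons. Fezf2 and Bcl11b then specify subcerebral projection neurons, and Bcl11b is also a factor of striatal neurons and T cells.

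In GRCm38 with GENCODE M21, Neurog2 (ENSMUSG00000027967) lies on chromosome 3 from 127633135 to 127635631, plus strand. Neurog1 (ENSMUSG00000048904) lies on chromosome 13 from 56250478 to 56252163, minus strand, and Bcl11b (ENSMUSG00000048251) on chromosome 12 from 107910403 to 108003602, minus strand. Their upstream sequences are printed because Neurog2 was the member that was low in all Atrx-deleted libraries, Neurog1 is its closest relative among the members, and Bcl11b was the member with the most even level. ATRX is known to bind G-rich sequence, so capitals mark runs of GGG or longer on the gene strand. Each is the 250 bases before the RefSeq start in GRCm38.p6, at chr3:127632886-127633135 for Neurog2, chr13:56252181-56252430 for Neurog1 and chr12:108003415-108003664 for Bcl11b, read 5′ to 3′ on the gene strand.
Neurog2: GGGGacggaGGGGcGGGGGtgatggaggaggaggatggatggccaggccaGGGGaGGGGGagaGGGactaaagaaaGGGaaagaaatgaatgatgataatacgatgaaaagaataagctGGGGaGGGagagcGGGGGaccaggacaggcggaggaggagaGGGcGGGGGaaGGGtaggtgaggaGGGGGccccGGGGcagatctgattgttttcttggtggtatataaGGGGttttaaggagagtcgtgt
Neurog1: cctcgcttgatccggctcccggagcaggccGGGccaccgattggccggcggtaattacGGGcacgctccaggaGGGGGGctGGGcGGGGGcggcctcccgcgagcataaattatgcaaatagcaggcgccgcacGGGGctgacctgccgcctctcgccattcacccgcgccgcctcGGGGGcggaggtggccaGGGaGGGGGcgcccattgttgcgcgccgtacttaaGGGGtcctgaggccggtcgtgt
Bcl11b: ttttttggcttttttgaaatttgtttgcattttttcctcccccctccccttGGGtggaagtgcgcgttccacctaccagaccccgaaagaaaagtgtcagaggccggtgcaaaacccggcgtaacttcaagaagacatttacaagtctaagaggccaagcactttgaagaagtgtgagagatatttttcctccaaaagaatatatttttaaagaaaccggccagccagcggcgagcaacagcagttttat
The Neurog2 window held 16 such runs, at the 98.9th percentile of 32851 upstream windows of the same length, whose median was 4 runs. The Neurog1 window held 10 runs, at the 90.9th percentile, and the Bcl11b window 1. Among the members whose windows are not printed, Neurod1 had 14 runs, at the 97.7th percentile. Neurod2 had 7, Fezf2 6, Eomes 3 and Tbr1 1. The Neurog1 window had 29 CG pairs and 71.2% G or C, against 8 CG pairs and 58.0% for Neurog2. The closer pattern of 4 runs spaced 1 to 7 bases apart, on either strand, was in the windows of Neurod1, Neurod2 and Fezf2 and not in the Neurog2 window; 16.7% of all windows held it. The E-box CANNTG, the core bound by basic helix-loop-helix factors, which reads the same on both strands, was in 3 of the 8 members' windows (Neurod1, Neurod2 and Tbr1) and in 66.2% of all windows. These counts describe letters in the windows, and no binding was measured.

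The other members are at chromosome 2 from 79452521 to 79456751 (Neurod1, ENSMUSG00000034701, minus strand), chromosome 11 from 98325415 to 98329648 (Neurod2, ENSMUSG00000038255, minus strand) and chromosome 9 from 118478212 to 118486132 (Eomes, ENSMUSG00000032446, plus strand). Tbr1 (ENSMUSG00000035033) is on chromosome 2 from 61802930 to 61814114, plus strand, and Fezf2 (ENSMUSG00000021743) on chromosome 14 from 12342094 to 12348189, minus strand.

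The table holds quantile-normalised log2 TPM (a level scaled for transcript length and library size), back-transformed here, so every library has the same distribution of values. In each library 67.4% of genes were at 1 TPM or more and the median gene was at 10.2 TPM. The lowest value stands for 0.00391 TPM, and 16.7% of genes were under 0.0078 TPM. Read depth is unknown, so no counting error could be given. Atrx itself ran from 127 to 163 TPM in the control libraries and from 42.8 to 74.0 TPM in the Atrx-deleted ones, a fall (log2(TPM + 1) differences -1.34 and -1.28, limma adjusted p = 0.039 and 0.0204) and not a complete loss. The library labelled mA19d#7 in differentiation medium stood apart. Over the 15660 genes at 1 TPM or more in at least 2 libraries, its rank correlation was 0.957 with mA16d#4 in proliferation medium. It was 0.926 with the other library of its own line. All 9 neural stem cell markers listed had a mean of at least 1 TPM in every group, led by Fabp7.

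All 8 members were low. Of their 80 values, 27 were at 1 TPM or more, 19 were under 0.0078 TPM and the highest was 7.03 TPM. By mean level Bcl11b was first in each of the 4 groups, without overlap with any other member except Eomes in the Atrx-deleted lines in differentiation medium (2.65 TPM against 2.67 TPM). Neurod2, Fezf2 and Neurog1 held the last places in the controls. Between them Eomes, Tbr1 and Neurod1 overlapped in both Atrx-deleted groups. In the controls both Eomes values were above those of Tbr1 and Neurod1 in proliferation medium, and both Tbr1 values were above those of Neurod1 in differentiation medium. Members were tested with limma on log2(TPM + 1) where at least 2 of the 10 libraries had 1 TPM or more. Neurog2, Neurod1, Eomes, Tbr1 and Bcl11b passed this filter, and Neurog1, Neurod2 and Fezf2 did not. The plot of TPM by library shows each member's values and how the lines scattered.

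**Figure D1:**
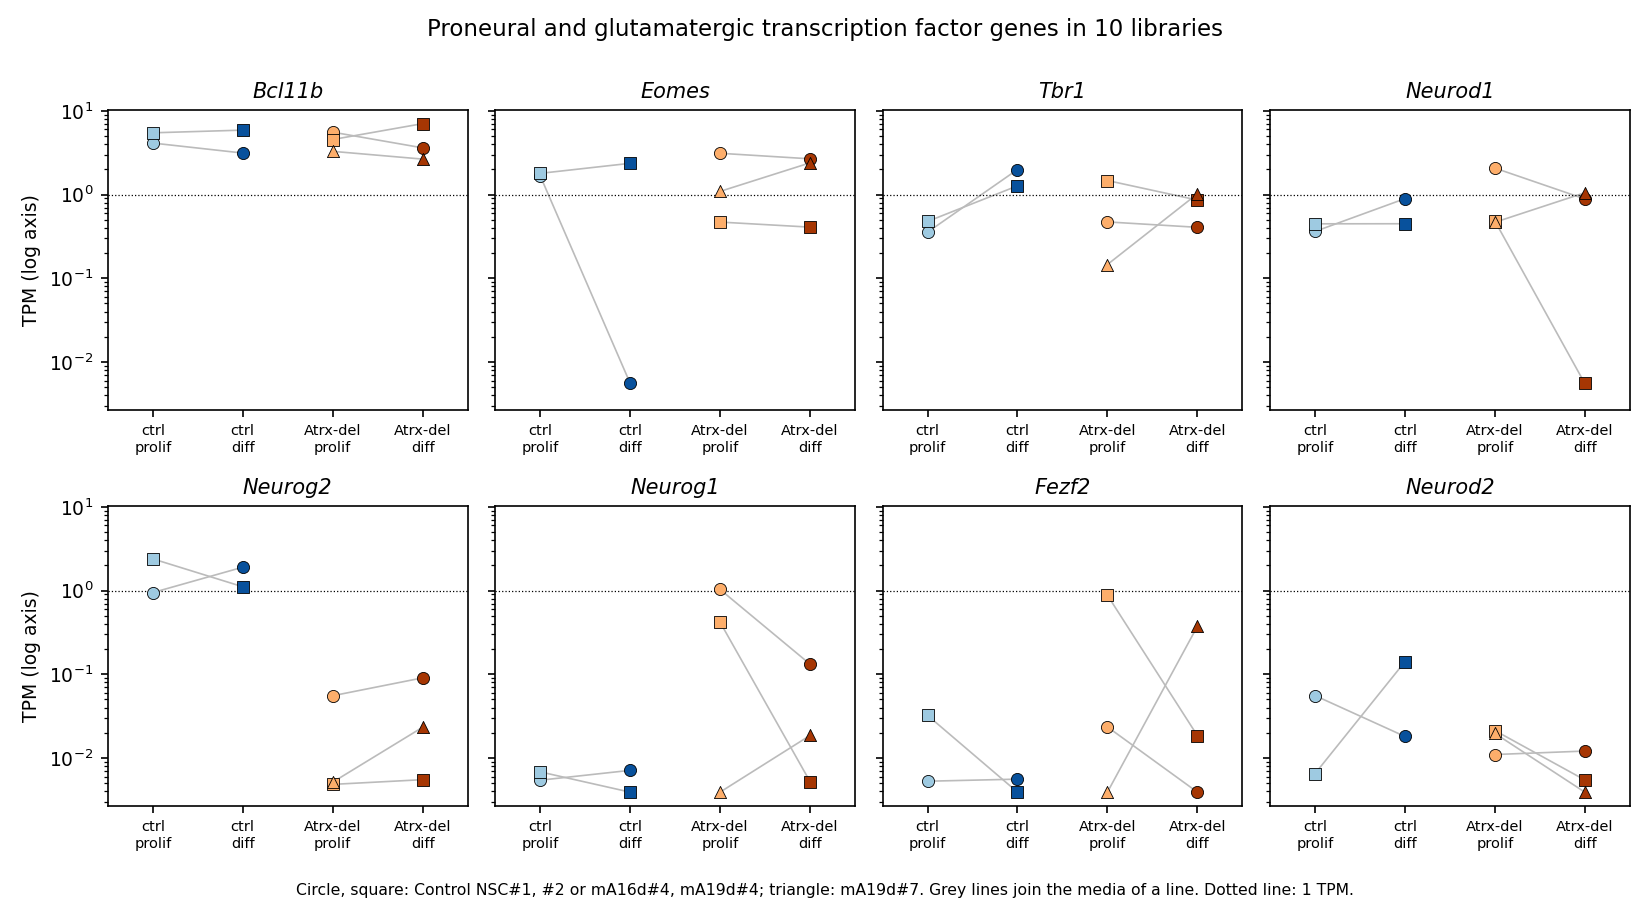
TPM (log axis) of the 8 members in every library, by group on the x axis; symbols are lines, grey lines join a line's proliferation and differentiation libraries, and the dotted line is 1 TPM. Neurog2 is at 0.945 TPM or more in the 4 control libraries and at 0.0906 TPM or less in the 6 Atrx-deleted ones, while Bcl11b stays between 2.65 and 7.03 TPM.

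No member passed the threshold of an adjusted p under 0.05 (Benjamini-Hochberg over the 15660 genes tested) in any of the 5 comparisons. For Atrx-deleted against control lines in proliferation medium 0 of 5 members were called against 0.46% of all genes tested, and in differentiation medium 0 of 5 against 2.89%. For differentiation against proliferation medium, 0 of 5 were called in the control lines against 4.51%, and 0 of 5 in the Atrx-deleted lines against 0.083%. The interaction, the difference between the media effects of the 2 kinds of line, had 0 of 5 against 0.00639%. At an unadjusted p under 0.05, limma called 1 member, Neurog2, in each of the comparisons between Atrx-deleted and control lines and 0 in the other 3. The same unadjusted limit took 13.7%, 20.2%, 19.9%, 14.8% and 7.02% of all genes in the order given. With this few lines such counts leave wide intervals, which the plot of differences shows.

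**Figure D2:**
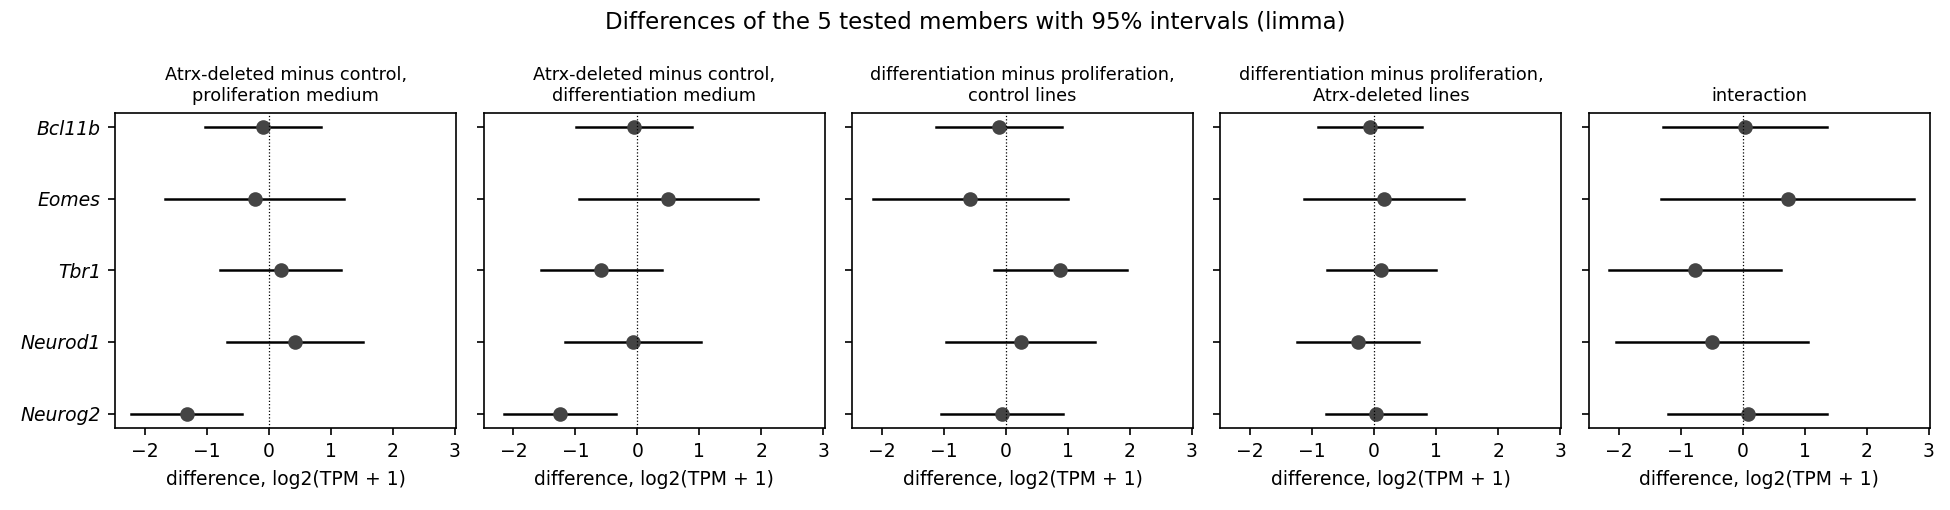
Differences in log2(TPM + 1) on the x axis for the 5 tested members, 1 panel per comparison; points are limma estimates and bars are 95% intervals. Only the Neurog2 intervals in the first 2 panels lie on 1 side of 0 (-2.23 to -0.43 and -2.15 to -0.35).

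Neurog2, the proneural factor of dorsal telencephalic progenitors, was present at a low level in the control lines and near the bottom of the scale in the Atrx-deleted lines. In proliferation medium it was at 0.945 TPM in Control NSC#1 and 2.39 TPM in Control NSC#2, against 0.0554 TPM in mA16d#4, 0.00484 TPM in mA19d#4 and 0.00514 TPM in mA19d#7. In differentiation medium the control libraries were at 1.9 and 1.11 TPM, and mA16d#4, mA19d#4 and mA19d#7 were at 0.0906, 0.00551 and 0.0233 TPM. All 6 Atrx-deleted libraries were below all 4 control libraries, with no overlap in either medium; 3.92% of the genes tested had this order of libraries. In bulk RNA, fewer cells that express a gene and less RNA per cell cannot be told apart.

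On the log2(TPM + 1) scale, the Neurog2 difference between Atrx-deleted and control lines was -1.33 (SE 0.407, limma adjusted p = 0.195) in proliferation medium. In differentiation medium it was -1.25 (95% interval -2.15 to -0.35, limma adjusted p = 0.124), and -1.24 without the mA19d#7 library (adjusted p = 0.138). Over the alternatives the adjusted p ran from 0.0792 to 0.787 for the first difference and from 0.0456 to 0.561 for the second. Averaged over both media, a contrast added after the data had been seen, the difference was -1.29 (SE 0.288, limma adjusted p = 0.0282, with 6.74% of all genes called). This call was lost in 10 of 26 alternatives, including leaving out any 1 of the 4 control libraries (adjusted p 0.0617 to 0.126) or the proliferation library of mA19d#4 (0.0624), leaving out any line except mA19d#7 (0.0613 to 0.204), and taking the mean of each of the 5 lines as 1 value (0.0796). Neurog2 entered the test only through its control libraries. An exact two-sided permutation test over lines reached its lower limit for 2 against 3, p = 0.1, in both media, and 0.4 after adjustment over 16 tests.

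Neurog2 did not move with the medium beyond its spread. Control NSC#1 was higher in differentiation medium by 0.58 on the log2(TPM + 1) scale, and Control NSC#2 was lower, at -0.69. The mean change was -0.055 in the control lines (limma adjusted p = 0.974) and 0.025 in the Atrx-deleted lines (adjusted p = 0.984), and the interaction was 0.08 (adjusted p = 0.992).

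The genes whose values over the 10 libraries were most like those of Neurog2 were Fgf14 (Pearson r of log2(TPM + 1) 0.974), Rimbp2 (0.968) and Pisd-ps1 (0.95). Fgf14, which encodes an intracellular partner of sodium channels, ran from 1.1 to 3.09 TPM in the control libraries and was at 0.0219 TPM or less in all Atrx-deleted ones. Rimbp2, a presynaptic scaffold gene, ran from 8.6 to 15.4 TPM in the control libraries and from 0.00391 to 0.0129 TPM in the Atrx-deleted ones. These likenesses rest on the same split of lines, so they describe the 10 libraries only.

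The genes on either side of Neurog2 were read after its values had been seen. Zgrf1 ends 15.1 kb before Neurog2 and Larp7 ends 79.8 kb before it, and neither was lower in all Atrx-deleted libraries: Zgrf1 ran from 7.23 to 9.53 TPM in the controls and from 9.89 to 16.8 TPM in the Atrx-deleted lines. Larp7 was lower in the 3 Atrx-deleted libraries in proliferation medium, 23.3 to 35.0 TPM against 36.0 and 50.2 TPM (-0.49, limma adjusted p = 0.392), and overlapped in differentiation medium. On the other side, Alpk1, an innate immune kinase gene 34.7 kb away, was at 52.0 and 47.3 TPM in the control libraries in proliferation medium and at 25.3, 3.46 and 3.78 TPM in the Atrx-deleted lines (mA16d#4, mA19d#4, mA19d#7). Tifa, an adaptor that ALPK1 phosphorylates, lies 154 kb away and was at 45.0 and 46.3 TPM against 18.6, 13.9 and 12 TPM in the same order.

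In differentiation medium these 2 neighbours were lower in mA16d#4 and mA19d#4 (Alpk1 6.75 and 2.74 TPM, Tifa 19.3 and 6.4 TPM) than in the controls (22.6 to 35.7 and 31.4 to 42.8 TPM). The library labelled mA19d#7 was instead at 40.1 TPM for Alpk1 and 36.4 TPM for Tifa, within or above the control range, while its Neurog2 value stayed at 0.0233 TPM. Neither gene passed the test (limma adjusted p = 0.267 and 0.421 for Alpk1, 0.234 and 0.282 for Tifa, in proliferation and differentiation medium). Ap1ar, 171 kb away, overlapped between the groups in both media. The plot of this stretch of chromosome 3 shows the genes in order.

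**Figure D3:**
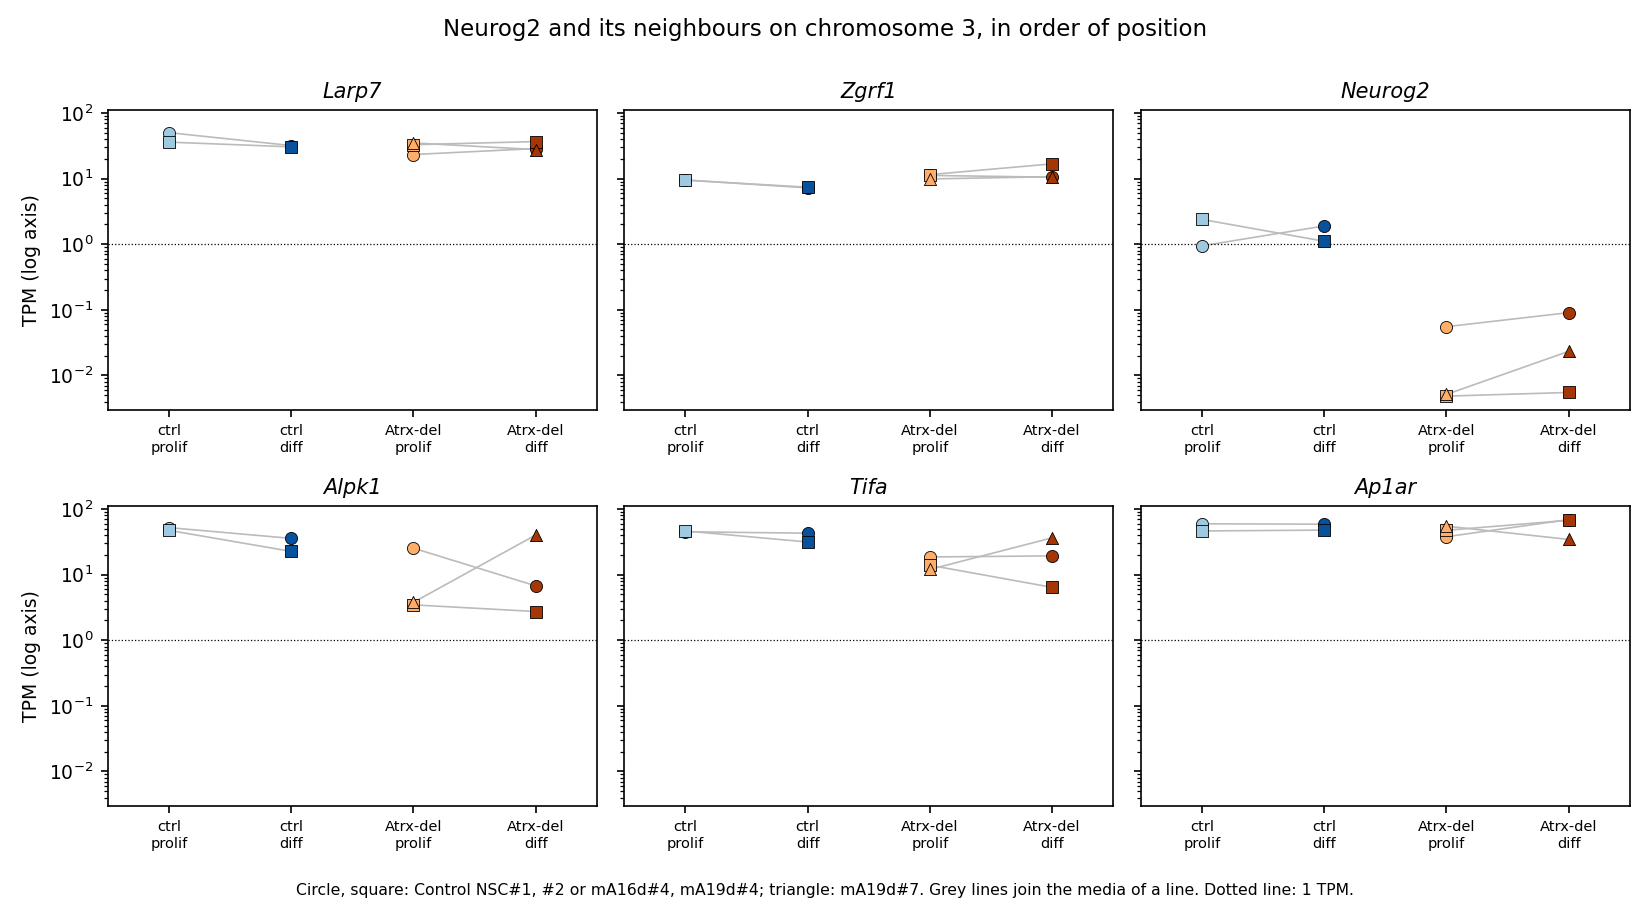
TPM (log axis) of Neurog2 and 5 neighbouring genes in every library, by group on the x axis, in their order on chromosome 3; symbols are lines and grey lines join a line's media. Alpk1 and Tifa are below both control libraries of the same medium in 5 of the 6 Atrx-deleted libraries, and mA19d#7 in differentiation medium is at 40.1 and 36.4 TPM.

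Neurog1, the paralogue of Neurog2 with a main role in sensory and some cortical progenitors, was not tested. In proliferation medium it was at 0.00543 and 0.00683 TPM in the controls and at 1.03 TPM in mA16d#4, 0.419 TPM in mA19d#4 and 0.00391 TPM in mA19d#7. In differentiation medium the controls were at 0.00712 and 0.00391 TPM, and the Atrx-deleted lines, in the same order, at 0.132, 0.00523 and 0.0186 TPM. The higher values were thus those of mA16d#4 in both media and of mA19d#4 in proliferation medium, and in proliferation medium mA19d#7 was below both controls. The summed level of 8 sensory and neural crest markers also had higher values in the Atrx-deleted lines, 16.4 to 32.9 TPM against 10.3 to 13.4 TPM in proliferation medium and 21.1 to 37.2 against 12.7 to 14.9 TPM in differentiation medium. Of these 8 markers 4 were tested and none was called between the lines, against 0.46% and 2.89% of all genes in the 2 media. The part of such cells in the Neurog1 values was not tested.

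Neurod1, a target and effector of the neurogenins in committed neuronal cells, was at a similar low level in most libraries. In proliferation medium it was at 0.362 and 0.447 TPM in the controls and in mA16d#4, mA19d#4 and mA19d#7, in turn, at 2.07, 0.485 and 0.466 TPM. In differentiation medium the controls were at 0.892 and 0.448 TPM and the Atrx-deleted lines at 0.886, 0.00555 and 1.05 TPM. The groups did not overlap in proliferation medium, where the lowest Atrx-deleted library was just above the highest control, and overlapped in differentiation medium.

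The Neurod1 difference between Atrx-deleted and control lines was 0.42 on the log2(TPM + 1) scale in proliferation medium (limma adjusted p = 0.754) and -0.073 in differentiation medium (adjusted p = 0.955). The near absence in mA19d#4 after 8 days decided the sign of the second value, which was 0.25 without that library and -0.27 without the mA19d#7 library. Neurod1 was 0.49 higher in differentiation medium in mA19d#7 and lower in mA16d#4 and mA19d#4, at -0.70 and -0.56, and none of its medium comparisons passed the test (adjusted p = 0.867 in the control lines and 0.828 in the Atrx-deleted lines, where the change of -0.26 was -0.45 without the mA19d#7 differentiation library).

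Neurod2, which acts in maturing excitatory neurons, was at 0.141 TPM or less in every library and was not tested. Its values were 0.0557 and 0.00648 TPM in the controls and 0.011, 0.0213 and 0.0197 TPM in the Atrx-deleted lines (mA16d#4, mA19d#4, mA19d#7) in proliferation medium. In differentiation medium they were 0.0181 and 0.141 TPM in the controls and 0.0121, 0.00547 and 0.00391 TPM in the Atrx-deleted lines. The groups overlapped in proliferation medium and not in differentiation medium, at levels where a gene is hard to tell from an unexpressed one.

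Eomes, the T-box factor of intermediate progenitors, was among the higher members and varied widely between lines. In proliferation medium it was at 1.68 and 1.79 TPM in the controls and in mA16d#4, mA19d#4 and mA19d#7, in turn, at 3.11, 0.469 and 1.09 TPM. In differentiation medium Control NSC#1 was at 0.00558 TPM and Control NSC#2 at 2.36 TPM, and the Atrx-deleted lines were at 2.67, 0.408 and 2.39 TPM. The groups overlapped in both media, and mA19d#4 was the lowest Atrx-deleted line in each.

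The differences of Eomes between Atrx-deleted and control lines were -0.23 (limma adjusted p = 0.915) in proliferation medium and 0.50 (adjusted p = 0.71) in differentiation medium on the log2(TPM + 1) scale. The second value rested on the Control NSC#1 library and was -0.37 without it. Without mA19d#7 it was 0.31. In the control lines the change with the medium was -0.57 (adjusted p = 0.726), made up of -1.42 in Control NSC#1 and 0.27 in Control NSC#2. In the Atrx-deleted lines it was 0.16 (adjusted p = 0.929), and -0.034 without the mA19d#7 library. Over the 10 libraries the correlation of Eomes with Neurod1 was 0.462 and with Tbr1 -0.541 (Pearson r), given as a description of libraries that share 5 lines.

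Tbr1, the T-box factor of early-born glutamatergic neurons, was higher in differentiation medium in both control lines, without passing the test. The controls were at 0.355 and 0.477 TPM in proliferation medium and at 1.99 and 1.27 TPM in differentiation medium. In the order mA16d#4, mA19d#4 and mA19d#7, the Atrx-deleted lines were at 0.471, 1.47 and 0.146 TPM and then at 0.406, 0.859 and 1.02 TPM. The 2 media did not overlap in the control lines and overlapped in the Atrx-deleted lines, where mA19d#7 alone was higher in differentiation medium.

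On the log2(TPM + 1) scale the change of Tbr1 with the medium was 0.88 in the control lines (95% interval -0.19 to 1.95, limma adjusted p = 0.362) and 0.11 in the Atrx-deleted lines (adjusted p = 0.923), with 0.0069 without the mA19d#7 differentiation library and -0.24 without that line. The test of the difference between these changes gave -0.77 (adjusted p = 0.852). Of the 5 tested members Tbr1 and Neurod1 had control libraries that did not overlap between media, against 61.3% of all genes tested, and no tested member had non-overlapping Atrx-deleted libraries between media, against 16.5%. In differentiation medium every Atrx-deleted library was below both controls (difference -0.58, adjusted p = 0.491, and -0.69 without mA19d#7). Tbr1 and Neurog2 were the 2 of 5 tested members without overlap between lines in that medium, where 36.3% of all genes had none, and Neurog2 and Neurod1 were the 2 of 5 in proliferation medium, against 38%.

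Bcl11b, a zinc-finger factor of subcerebral and striatal projection neurons, was the only member at 1 TPM or more in all 10 libraries. It was at 4.12 and 5.46 TPM in the controls and at 5.56, 4.54 and 3.28 TPM in the Atrx-deleted lines (mA16d#4, mA19d#4, mA19d#7) in proliferation medium. In differentiation medium the controls were at 3.13 and 5.88 TPM and the Atrx-deleted lines at 3.61, 7.03 and 2.65 TPM. The groups overlapped in both media, and the level was below that of the median gene throughout.

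The Bcl11b difference between Atrx-deleted and control lines was -0.10 in proliferation medium (95% interval -1.03 to 0.84) and -0.057 in differentiation medium (-0.99 to 0.88), with limma adjusted p = 0.952 and 0.959. The second value was 0.19 without the mA19d#7 library. The changes with the medium were -0.11 in the control lines and -0.069 in the Atrx-deleted lines (adjusted p = 0.938 and 0.955). These intervals reach almost 1 log2 unit to either side, so the values do not show that Bcl11b was equal. Markers of the other cells known for Bcl11b were read beside it. The summed level of 11 T and NK cell genes was 3.51 to 13.4 TPM over all libraries, and that of 11 striatal projection neuron genes 46.7 to 119 TPM. Of these, 4 and 7 were tested and none was called between Atrx-deleted and control lines, against 0.46% and 2.89% of all genes in the 2 media. Ebf1 of the striatal list was called between media in the control lines. The part of such cells in the Bcl11b values was not tested.

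Fezf2, the selector of subcerebral projection neurons, was near the bottom of the scale in most libraries and was not tested. It was at 0.00528 and 0.0323 TPM in the controls and at 0.0235, 0.878 and 0.00391 TPM in the Atrx-deleted lines (mA16d#4, mA19d#4, mA19d#7) in proliferation medium. In differentiation medium the controls were at 0.00559 and 0.00391 TPM and the Atrx-deleted lines at 0.00391, 0.0185 and 0.374 TPM. The 2 highest values were in mA19d#4 in proliferation medium and in mA19d#7 in differentiation medium, so no line was high in both media.

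Genes most like the other tested members over the 10 libraries had lower correlations. For Neurod1 they were Plce1 (Pearson r 0.934) and Pigv (0.904), and for Eomes Hsd17b1 (0.923), Ybey (0.921) and Tchp (0.891). For Tbr1 they were Slc26a6 (0.928), Spns3 (0.92) and Hunk (0.872), and for Bcl11b Fiz1 (0.912), Zfp334 (0.884) and Zfp668 (0.882). None of these was another member, and the correlations between tested members ran from -0.541 to 0.462.

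The dorsal progenitor regulators ranged widely in level, with 13 of 18 listed at a mean of 1 TPM or more in each group and 2 to 5 under 0.1 TPM. Pax6, which activates Neurog2 in dorsal progenitors, had means of 29.4 to 37.7 TPM, and the forebrain regulator Emx2 of 20.6 to 32.6 TPM. Between Atrx-deleted and control lines the differences of Pax6 were -0.17 and -0.07 in proliferation and differentiation medium (limma adjusted p = 0.793 and 0.899). The plot of pathway genes shows that Pax6 and Emx2 stood above every member in every library.

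**Figure D4:**
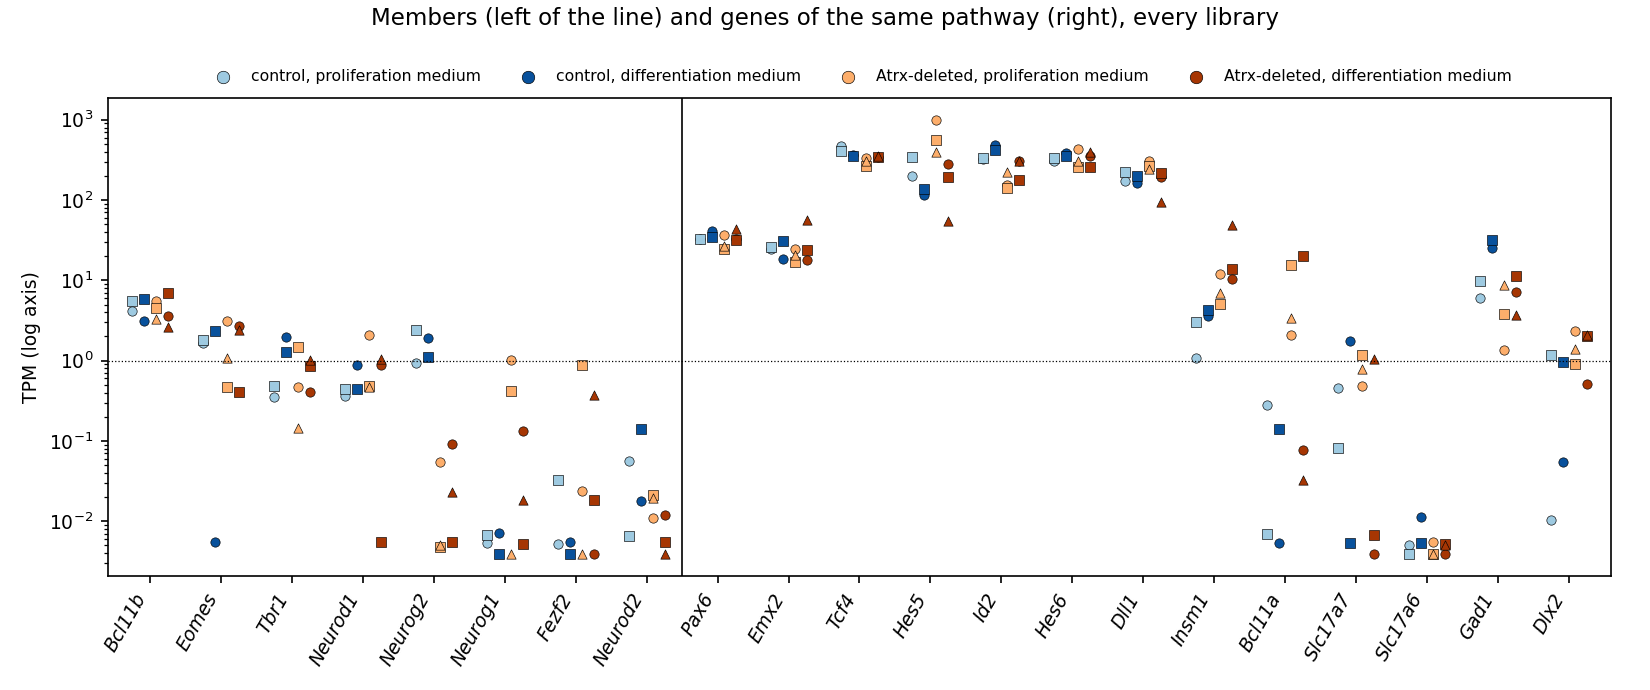
TPM (log axis) of the members (left of the vertical line) and of 13 pathway genes (right) in every library; colours are groups, symbols are lines as in the plot by library, and the dotted line is 1 TPM. Pax6 group means are 29.4 to 37.7 TPM, against at most 7.03 TPM in any library for a member.

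Genes that neurogenin and Neurod factors are known to induce were not called between the lines within a medium. Of 23 tested of 24 listed, 0 passed the test between Atrx-deleted and control lines in either medium, where 0.46% and 2.89% of all genes did. In proliferation medium 16 were higher and 7 lower (median 0.29, all genes -0.017), and in differentiation medium 10 were higher and 13 lower (median -0.18, all genes 0.016). Insm1, a zinc-finger factor of neurogenic progenitors, was at 1.07 and 3.03 TPM in the controls and 11.9, 5.05 and 6.93 TPM in the Atrx-deleted lines (same order) in proliferation medium. In differentiation medium it was at 3.61 and 4.3 TPM against 10.3, 13.8 and 49.2 TPM, without overlap in either medium (difference 2.04 in the second, limma adjusted p = 0.0998). Averaged over both media, the contrast added for Neurog2, 3 of the 23 genes were called, against 6.74% of all genes tested. Insm1 and Ebf2, an early neuronal factor, rose in the Atrx-deleted lines (1.80 and 1.62, limma adjusted p = 0.0347 and 0.0451). Cdkn1c, a cell cycle inhibitor, fell (-1.62, limma adjusted p = 0.0131). These calls were lost in 13 of 27, 13 of 27 and 7 of 26 alternatives. Hes6 and Dll1, a proneural target and the Notch ligand that the neurogenins switch on, had group means of 320 to 373 and 168 to 274 TPM and were not called in any comparison.

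In the control lines 2 of these 23 genes rose with differentiation medium and none fell, where 4.51% of all genes tested were called in either direction. Elavl3, a neuronal RNA-binding protein gene, went from 0.932 and 2.43 TPM to 13.4 and 20.1 TPM (difference 2.76, limma adjusted p = 0.0359). Prmt8, a brain arginine methyltransferase gene, went from 0.0475 and 0.054 TPM to 2.57 and 9.62 TPM (2.55, adjusted p = 0.033), and entered the test only through its 2 control libraries in differentiation medium, so its call is no independent support for the count. Both calls were lost on leaving out any 1 of the 4 control libraries and with the line as a fixed block (adjusted p = 0.0531 for Elavl3 and 0.0665 for Prmt8). In the Atrx-deleted lines Elavl3 was at 3.1, 9.34 and 1.35 TPM after differentiation, and its interaction of -2.55 had an adjusted p of 0.512.

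Among the inhibitors of proneural factors, 16 of 17 listed were tested. Gmnn, geminin, a replication licensing inhibitor that also restrains neuronal commitment, fell in the control lines with differentiation medium, from 31.3 and 29.7 TPM to 3.45 and 5.1 TPM (difference -2.59, limma adjusted p = 0.00532). In the Atrx-deleted lines it was at 43.9, 35.5 and 25.5 TPM and then at 18.2, 23.5 and 26.4 TPM, so that in differentiation medium it was higher than in the controls (2.17, adjusted p = 0.00705); without the Control NSC#1 differentiation library these adjusted p values were 0.0747 and 0.118, and the first was 0.0932 without its proliferation library. Bhlhe41, a transcriptional repressor of the same helix-loop-helix superfamily, rose in the control lines with differentiation medium (2.02, adjusted p = 0.0201), a call lost on leaving out any 1 of the 4 control libraries. Bhlhe41 was higher in differentiation medium in every line, with 1.58 in the Atrx-deleted lines (limma adjusted p = 0.09).

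The Notch effector Hes5 was at 198 and 339 TPM in the controls and 992, 555 and 399 TPM in the Atrx-deleted lines (same order) in proliferation medium, without overlap (1.22, limma adjusted p = 0.406). In differentiation medium Hes5 was lower in every line, and the Atrx-deleted and control libraries overlapped (0.2, limma adjusted p = 0.887). Id2, which sequesters the E protein partners of proneural factors, had lower means in the Atrx-deleted lines, 172 against 331 TPM and 266 against 455 TPM (adjusted p = 0.153 and 0.128). Tcf4, one of those E proteins, had group means of 304 to 439 TPM. Averaged over both media, the contrast added after the data had been seen, Id2 was called (-0.89, limma adjusted p = 0.0235), and so was Gmnn (1.17, 0.0109). Hes5 (0.71, 0.327) and Bhlhe41 (-0.41, 0.34) were not, and 6.74% of all genes tested were called. Of the helix-loop-helix relatives and partners 8 of 15 were tested and none was called in any of the 5 comparisons, where 0.00639% to 4.51% of all genes were.

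Of 14 tested of 18 dorsal forebrain regulators, 1 rose in the Atrx-deleted lines in differentiation medium, where 2.89% of all genes tested were called. This was Nr2f2, a nuclear receptor also known from caudal and ventral progenitors (16.0 against 4.9 TPM, 1.59, limma adjusted p = 0.043, lost in 20 of 27 alternatives, with 0.0519 without the mA19d#7 library). Of 23 tested of 24 cortical projection neuron factors, Tshz2 rose in the same comparison (42.3 against 10.9 TPM, 1.77, limma adjusted p = 0.0395). That call was lost in 13 of 27 alternatives, among them the one without the Control NSC#1 differentiation library. In proliferation medium Nr2f2 and Tshz2 were also higher in the Atrx-deleted lines, uncalled (1.60 and 1.93, limma adjusted p = 0.0921 and 0.067). Mef2c, an activity-regulated factor of the projection neuron list, fell with differentiation medium in the control lines (49.5 to 14.8 TPM, -1.67, limma adjusted p = 0.00981). That call was lost without either Control NSC#1 library or the Control NSC#2 differentiation library. Mef2c was lower in differentiation medium in every line, with -1.17 in the Atrx-deleted lines (43.5 to 18.6 TPM, limma adjusted p = 0.0783). Bcl11a, the paralogue of Bcl11b, was at 0.282 TPM or less in the controls and at 15.5 and 20.0 TPM in mA19d#4, against 3.42 TPM or less in the other Atrx-deleted libraries (adjusted p = 0.397 and 0.538).

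Genes of glutamatergic transmission downstream of the cascade were mixed. Slc17a6, the vesicular glutamate transporter 2 gene, was at 0.0114 TPM or less in every library, and Slc17a7, the vesicular glutamate transporter 1 gene, had group means of 0.273 to 0.882 TPM. Of 16 tested of 17 listed, 1 was called between the lines in differentiation medium, against 2.89% of all genes tested. This was Camk2a, the kinase subunit of excitatory synapses, which fell in the Atrx-deleted lines. It was at 31.8 and 32.8 TPM in the controls and at 1.74, 4.39 and 1.8 TPM in the Atrx-deleted lines (-3.27, limma adjusted p = 0.0104). The call was lost without the differentiation library of Control NSC#1 or of Control NSC#2. In proliferation medium Camk2a was also lower in the Atrx-deleted lines, uncalled (3.97 against 22.2 TPM, -2.34, limma adjusted p = 0.0736).

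GABAergic genes mark the other lineage choice of forebrain progenitors, with 17 of 25 listed tested and 0 called between Atrx-deleted and control lines. Of all genes tested 0.46% were called in proliferation and 2.89% in differentiation medium, so 0 among 17 genes tells little about the lineage. Gad1, the GABA-synthesising enzyme gene, had means of 7.94 and 28.5 TPM in the control lines in proliferation and differentiation medium, and of 4.62 and 7.4 TPM in the Atrx-deleted lines (difference -1.91 in differentiation medium, limma adjusted p = 0.103). Dlx2, the ventral progenitor factor, had means of 0.504 to 1.55 TPM. Ebf1, which also marks striatal neurons, fell in the control lines with differentiation medium (10.4 to 2.96 TPM, -1.53, adjusted p = 0.029), a call lost on leaving out any 1 of the 4 control libraries and with the line as a fixed block (0.0652). Ebf1 was lower in differentiation medium in every line, with -0.95 in the Atrx-deleted lines (9.93 to 4.7 TPM, limma adjusted p = 0.162).

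Marker genes of other cell types moved in some of the same comparisons. In differentiation medium the Atrx-deleted lines had lower Apoe, a marker on the astrocyte list (-2.44), lower Pdgfra of the oligodendrocyte lineage (-2.11), lower Rbfox3 (-3.01) and higher Nefl (1.96), the last 2 neuronal, all with limma adjusted p under the threshold. The summed level of 9 oligodendrocyte lineage genes was 2060 to 5240 TPM in these Atrx-deleted libraries and 4080 to 4430 TPM in the controls, that of 9 neuronal genes 431 to 1220 against 830 to 850 TPM, and that of 8 astrocyte genes 1320 to 4670 against 6880 to 7890 TPM. The astrocyte sum was carried by Apoe, with a mean of 6030 TPM in the controls, and of the 8 genes 4 differed upward and 4 downward in Atrx-deleted libraries. In the control lines differentiation medium raised Apoe (3.53) and Slc1a2 (2.91) of the astrocyte list, of which 5 of 8 were higher and 3 lower, and among neural stem cell markers Slc1a3 rose (1.23) and Nes fell (-1.15). The part of cell composition in the members' values was not tested.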

How the data were processed

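The members and gene lists were chosen with earlier results of these data known. Per the submitters' processing notes, the authors aligned total RNA reads with STAR to mm10; annotation and quantification: not given in the sources used here. The deposited values are log2 of TPM as read from the values, which sum to 997524 per library after back-transformation, and all libraries share 1 sorted set of values, so a change in total RNA cannot be seen. The design had assumed linear TPM, so values were back-transformed. For genes reaching 1 TPM in 2 or more libraries, log2(TPM + 1) was modelled by limma 3.58.1 under R 4.3.3 (variance trend on, 4 group means, 10 libraries, 6 residual degrees of freedom). Differences on this scale understate changes of low genes. The script was checked on simulated data without line effects, where only genes of higher mean level than the members were changed. That check did not cover the levels of the members. Named genes were the members, called genes of the lists, a fixed set of pathway genes and the 3 genes most correlated with each tested member; a few of these are not reported here. Lines pair libraries across media by their labels; correlations of paired deviations were 0.0624 for the control lines, 0.159, 0.404 and -0.194 for mA16d#4, mA19d#4 and mA19d#7. Sequences are from RefSeq (GRCm38.p6), which matched all 8 members. Alternatives changed the pseudocount, filter, fit, block and libraries.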

Additional observations from a re-analysis of the deposited data

Results flagged for a closer look

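Tcf4, the E protein partner gene, moved in opposite directions with the medium: its log2(TPM + 1) change averaged -0.27 in the control lines, with both lower in differentiation medium, and 0.2 in the Atrx-deleted lines, with all 3 higher. The test of the difference between these changes gave 0.47 (limma adjusted p = 0.739). Only the named genes were searched for this pattern, and the share of all genes that have it was not counted.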

How the results depend on the processing

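In the 5 planned comparisons no member was called under any alternative, except Neurog2 between Atrx-deleted and control lines in differentiation medium with limma without a trend (1 member, adjusted p = 0.0456). The added contrast over both media called Neurog2 and lost it in 10 of 26 alternatives. Leaving out libraries or lines gave 0 called members in these 5 comparisons. Counts over all genes moved more. For Atrx-deleted against control lines in proliferation medium (72 called) they were 37 with no filter, 39 with the deposited log2 values tested directly, 24 with both, 672 with 1 weight per group, and 0 to 249 with libraries or lines left out. In differentiation medium (452) they were 2 with only the compared groups fitted and 1 to 935 with libraries or lines left out. For the medium in control lines (706) they were 2080 with only the compared groups fitted, 2984 with 1 weight per group and 0 to 1447 with libraries or lines left out. For the medium in Atrx-deleted lines (13) they were 2 with no filter, 0 without a trend, 0 with only the compared groups fitted, 1 with 1 weight per group and 0 to 348 with libraries or lines left out. For the interaction (1) they were 0 with pseudocounts of 0.1 or 0.5, 0 with a filter of 5 libraries, 30 with no filter, 2 without a trend, 0 with the log2 values tested directly, with or without the filter, 6 with 1 weight per group and 0 to 3 with libraries or lines left out. The highest of these ranges came on leaving out the mA19d#7 differentiation library. With the line as a fixed replicate block, the pairing gave 487 called genes for the medium in control lines, 6 in Atrx-deleted lines and 0 for the interaction; as a random block the counts were 67, 458, 827, 17 and 1 in the order of the report, and neither block called a member. The cause of these shifts was not tested.

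Of 971 values for single genes under alternatives, 53 had the opposite sign, all on leaving out a library or line and all of uncalled members. With libraries or lines left out, the log2(TPM + 1) differences of these members ran as follows. Bcl11b ran from -0.26 to 0.071 and from -0.42 to 0.31 between lines in proliferation and differentiation medium, from -0.48 to 0.26 and from -0.39 to 0.18 between media in control and Atrx-deleted lines, and from -0.33 to 0.41 for the interaction. Eomes, in the same order, ran from -0.64 to 0.10, -0.37 to 1.37, -1.44 to 0.30, -0.18 to 0.60 and -0.14 to 1.60. Neurod1 ran from -0.27 to 0.25 between lines in differentiation medium and from -0.63 to 0.093 between media in Atrx-deleted lines. Neurog2 ran from -0.69 to 0.58 and -0.01 to 0.048 between media in control and Atrx-deleted lines and from -0.55 to 0.71 for the interaction. Tbr1 ran from -0.12 to 0.43 between lines in proliferation medium and from -0.24 to 0.42 between media in Atrx-deleted lines. An arm left with 1 library is assumed to vary like the other groups. Depth is unknown, and 19 of 80 member values are under 0.0078 TPM, where low expression and none cannot be told apart.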
